A study of Mus musculus with 9 samples.

Results

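The genes described here are 41 genes of fatty acid oxidation among the 32427 genes that the 9 count matrices name. The list names them one by one and was drawn up with earlier results of these data known, and all 41 were present in the matrices. By the compartment in which their products are known to act they fell into 21 mitochondrial genes, 11 peroxisomal genes, 6 genes whose products act in more than one compartment and 3 genes of fatty acid uptake, binding or control. The samples were single-cell RNA libraries of mouse kidney, 3 mice in each of 3 groups, from a study of the passage from acute kidney injury (AKI) to lasting, chronic disease of the kidney (CKD) and of ergothioneine (EGT), a thiol amino acid found in the diet. All mice were male C57BL/6, 6 weeks old at the start, and the labels name no engineered allele. Control mice received saline. AKI-CKD mice received 4 weekly intraperitoneal injections of cisplatin at 8 mg/kg, a platinum drug that injures the proximal tubule. The AKI-CKD + EGT mice received the same cisplatin and 0.5 mg/mL EGT in the drinking water, begun 3 days before the first injection. Kidneys were taken at 8 weeks, and the labels name kidney tissue and no sort for a cell type. Numbers 1 to 3 name the mice of a group, and the labels state no pairing of mice between groups. The labels call the mice separate samples and the methods call them biological replicates, so mice are the units of the errors below. Standard errors of fold changes come from 1 model of all 9 mice. SDs are over the 3 mice of a group or over all 9 mice.

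The proximal tubule (PT) reabsorbs most of the filtered sodium, glucose and amino acids, and it draws its ATP mainly from fatty acids. Long-chain acyl groups enter the mitochondrion through the carnitine shuttle and are shortened there by repeated rounds of dehydrogenation, hydration, a second dehydrogenation and thiolysis, with electrons passed on through the electron transfer flavoprotein. Peroxisomes, which are abundant in PT cells, shorten very long and branched chains with a parallel set of enzymes, and the nuclear receptor PPARα, encoded by Ppara, controls many genes of both sets. Loss of this pathway in tubules is a known feature of injured and fibrotic kidneys, so the comparison of the cisplatin groups with the controls and with each other is a natural one for these genes.

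The libraries held 70106161 to 101525691 unique molecular identifiers (UMIs, the counted RNA molecules), and 196925 of 216680 barcodes were kept as cells, 17196 to 27463 a mouse, with a median of 2714 UMIs. Cells were named from marker genes after clustering without the 41 genes. PT cells numbered 153548, and their share was lowest in AKI-CKD + EGT mouse 3, at 51.3%, against up to 88.8% in AKI-CKD mouse 3. The first of these libraries stood apart in another way, since 27.7% of its barcodes that passed the UMI and gene minimums were removed for mitochondrially encoded RNA, against 0.909% to 17.0% in the others. Fold changes with EGT in PT cells are given with this mouse, and also without it where that changed their sign or moved them by more than 1.5 times. Levels are in CPM, the usual scale for a gene's share of all UMIs in the summed cells of 1 mouse, scaled between libraries by TMM, a method that sets the bulk of genes equal. Group differences are log2 fold changes with their standard error (SE), from edgeR's quasi-likelihood test over all genes, and a gene was called at a Benjamini-Hochberg adjusted p under 0.05. The 2 comparisons below share the AKI-CKD mice, so a chance deviation of those mice moves both, in opposite directions.

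No gene of the 41 was called in PT cells after cisplatin. In AKI-CKD against Control, 21 of the 41 lay above 0 (48.2% of all genes did) and 20 below, with a median log2 fold change of 0.01, a lowest value of -1.32 for Acsm3 and a highest of 0.51 for Acaa2. The median of all 17930 genes tested was -0.01, and 8 of them were called, which is 0.0446%. The mitochondrial genes had a median of -0.01 and the peroxisomal genes of 0.09. These values moved with single mice. With each mouse left out in turn 12 to 26 of the 41 lay below 0, and the medians ran from -0.07 to 0.06 for the 41 genes, from -0.08 to 0.05 for the mitochondrial and from -0.02 to 0.16 for the peroxisomal genes. The fewest lay below 0 when Control mouse 3 was dropped and the most when Control mouse 1 was. At an unadjusted p under 0.05 there were 3 of the 41, Acaa2 above the controls, where 4.89% of all genes passed that mark, and Acsm3 and Cd36 below, where 6.16% did. The mice of the 2 groups did not overlap for 6 genes that were higher in AKI-CKD, which are Acaa2, Crat, Decr2, Etfb, Hacl1 and Hadha, against 11.6% of all genes, and for 1 that was lower, Acsm3, against 9.33%. The 10 PT markers used to name the cells, among them Slc34a1 and Lrp2, had a median of 0.17 in the same comparison. DESeq2, a second count test, called 1 of the 41, Acsm3, and 191 of all genes.

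EGT was likewise not accompanied by a called difference. In AKI-CKD + EGT against AKI-CKD, 0 of the 41 genes and 0 of the 17930 genes tested were called in PT cells by edgeR (0.00%), and DESeq2 called 0 of the 41 and 409 of all genes. Of all genes edgeR called 94 where AKI-CKD + EGT mouse 1 was left out, and still 0 of the 41. In this comparison 32 of the 41 lay below 0 and 9 above (48.8% of all genes lay above), with a median of -0.13, a lowest value of -0.37 for Hacl1 and a highest of 0.74 for Acsm3. The mitochondrial median was -0.13 and the peroxisomal median -0.18, beside -0.01 for all genes and -0.29 for the 10 PT markers, of which 9 lay below 0. At an unadjusted p under 0.05 there was 1 gene that was higher, Acsm3, against 8.80% of all genes, and 0 that were lower, against 6.20%. The mice did not overlap for Acsm3, which was higher, against 10.1% of all genes, and for Acadvl and Hacl1, which were lower, against 10.9%. The lean of the 41 genes towards lower values moved with single mice. Without AKI-CKD + EGT mouse 3 the count was 18 below and 23 above 0 with a median of 0.02, and without AKI-CKD mouse 3 it was 24 below and 17 above with a median of -0.02. Leaving out AKI-CKD + EGT mouse 2 moved it the other way, to 35 below with a median of -0.23, the lowest over all mice. The peroxisomal median stayed below 0 with each mouse left out in turn, at -0.31 to -0.04 with 7 to 9 of the 11 genes below 0, as did that of the PT markers, at -0.42 to -0.16. Without AKI-CKD + EGT mouse 3 the 41 genes ran from -0.19 for Pecr to 0.79 for Acsm3, and 16 of them had the opposite sign to the value with it. Of the mitochondrial genes, Acadl then had 0.08, Acadm 0.15, Etfa 0.16, Etfdh 0.19, Cpt2 0.18, Slc25a20 0.10, Cpt1a -0.02, Eci1 -0.0030, Acsm1 0.13, Acsm2 0.10 and Acadsb 0.21. Of the others, Ehhadh had 0.36, Hsd17b4 0.20, Nudt19 0.06, Acox3 -0.0051, Crot -0.04, Slc27a2 0.27, Amacr 0.16, Acad11 0.15, Eci2 0.02 and Fabp3 -0.07, and the others that moved as far are given with their gene. AKI-CKD + EGT mouse 3 was the lowest of the 9 mice for 27 of the 41 genes on the TMM scale, but for 12 on plain CPM, since TMM lowered its values to 0.823 of plain CPM. With library totals as the only scaling, an alternative chosen after seeing the data, 9 of the 41 genes lay below 0 and 32 above, with a median of 0.08, a mitochondrial median of 0.08 and a peroxisomal median of 0.06. The median of all genes moved with them, from -0.01 to 0.22, so the median of the 41 genes lay below that of all genes on both scales while its sign followed the scaling. After cisplatin the same scaling put 26 of the 41 genes below 0, with a median of -0.08 beside -0.11 for all genes. No member was called on that scale in either comparison. Other measures of the PT cells moved with the same comparison. Mitochondrially encoded RNA made up 3.42% to 5.46% of PT UMIs in the AKI-CKD + EGT mice, against 1.92% to 3.03% in the AKI-CKD mice and 1.47% to 5.90% in the Control mice. Of 15 marker lists of other cell types, 6 had a higher sum in PT cells of every AKI-CKD + EGT mouse than of every AKI-CKD mouse, and none a lower one. The 6 markers of the distal convoluted tubule (DCT) summed to 95.7 to 262 CPM in AKI-CKD + EGT, against 25.5 to 53.8 in AKI-CKD and 57.3 to 130 CPM in Control. Those of the loop of Henle summed to 369 to 560.4 CPM against 304 to 362 in AKI-CKD, and those of principal cells to 62.6 to 106 CPM against 34.4 to 46.8. Intercalated cell markers summed to 13.04 to 80.1 CPM against 6.17 to 9.67, stromal markers to 5.004 to 17.6 CPM against 2.04 to 4.84, and red blood cell markers to 5.15 to 32.9 CPM against 0.163 to 1.05. Their part in the values of the 41 genes was not tested.

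**Figure D1:**
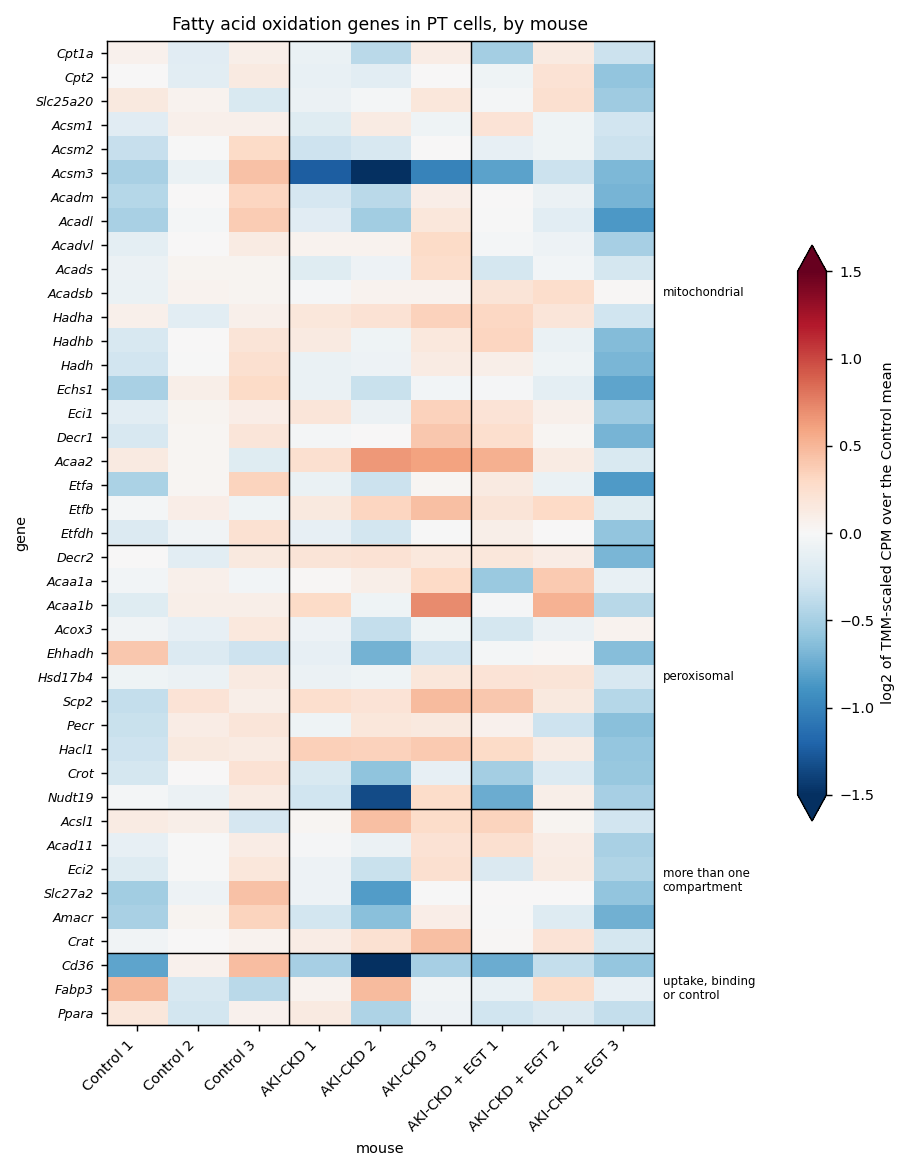
Level of each of the 41 genes (rows, grouped by compartment) in PT cells of each mouse (columns), as log2 of the TMM-scaled CPM over the mean of the 3 Control mice, with blue below and red above that mean. Acsm3 is blue in all 3 AKI-CKD mice, AKI-CKD + EGT mouse 3 is blue in most rows, and no compartment as a whole separates the groups.

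**Figure D2:**
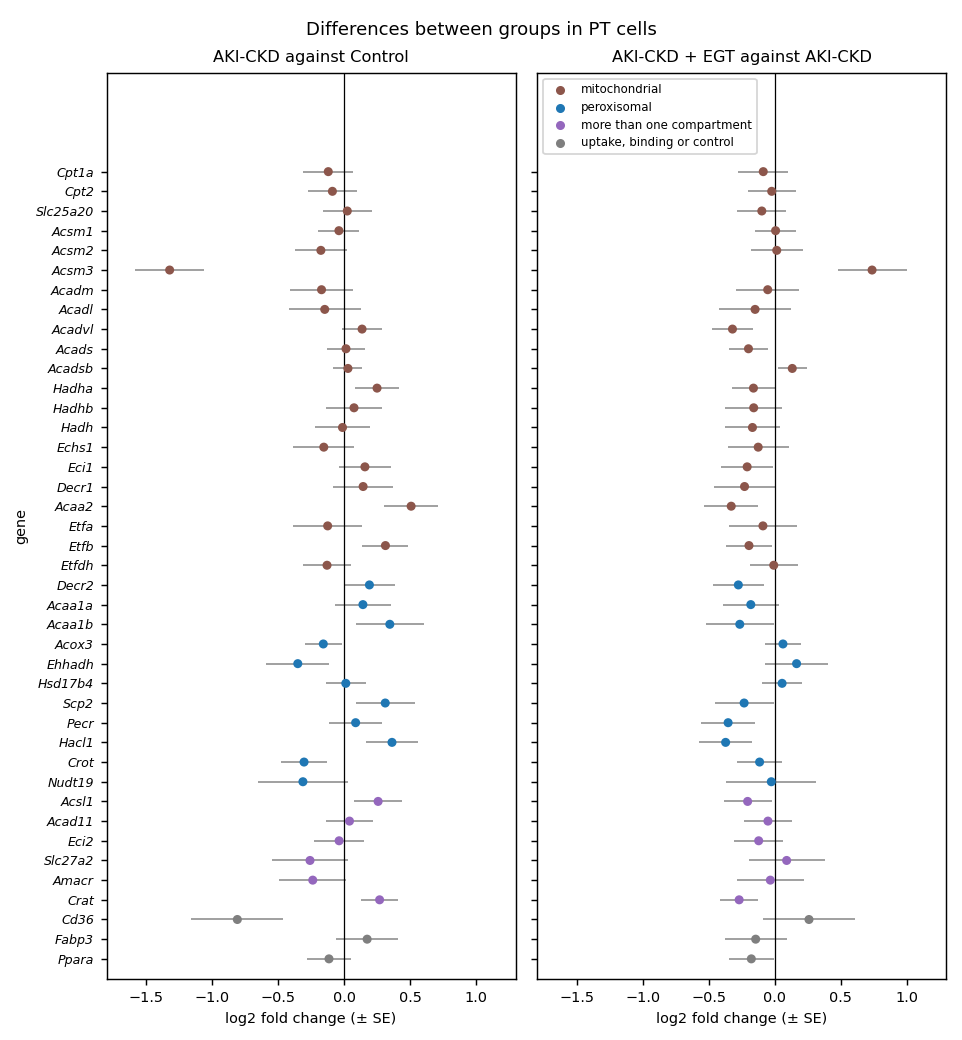
Log2 fold change (horizontal axis) of each gene (rows) in PT cells with its standard error (bars), AKI-CKD against Control on the left and AKI-CKD + EGT against AKI-CKD on the right, coloured by compartment. Acsm3 lies farthest from 0 on both sides, at -1.32 and 0.74, and none of the points was called at an adjusted p under 0.05.

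The carnitine shuttle carries long chains into the mitochondrion, and its 3 genes differed little between groups. Cpt1a, the rate-limiting transferase of the outer membrane, stood at 121, 102 and 122 CPM in the Control mice, 107, 86.7 and 124 in the AKI-CKD mice and 80.6, 126 and 91.9 in the AKI-CKD + EGT mice. All 3 groups overlapped. Its log2 fold changes were -0.12 (SE 0.19) in AKI-CKD against Control and -0.09 (SE 0.19) in AKI-CKD + EGT against AKI-CKD, and the pairs of values given for genes below follow this order. Cpt2, the inner transferase, had -0.09 (SE 0.18) and -0.02 (SE 0.18), and Slc25a20, the translocase between them, had 0.02 (SE 0.18) and -0.10 (SE 0.18).

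Acsm3 was the gene with the widest group difference. It encodes a medium-chain acyl-CoA synthetase, an enzyme of the mitochondrial matrix that activates medium-chain acids. In PT cells it stood at 70.7, 91.9 and 134 CPM in the Control mice, 41.8, 27.2 and 49.5 in the AKI-CKD mice and 56.7, 78.8 and 62.0 in the AKI-CKD + EGT mice. Every AKI-CKD mouse lay below every Control mouse and below every AKI-CKD + EGT mouse, and 1 Control mouse lay inside the AKI-CKD + EGT range. The fold changes were -1.32 (SE 0.26) with an adjusted p of 0.177 and 0.74 (SE 0.26) with an adjusted p of 0.263, so neither was called. In the first comparison it was called by DESeq2 (adjusted p 0.000529) and by edgeR with no filter on low counts (adjusted p 0.00478). The other alternatives with all mice kept it at an adjusted p of up to 0.305. Leaving out each mouse in turn gave -1.52 to -1.04, with adjusted p-values by edgeR of 0.105 to 0.560. Its neighbours on chromosome 7 had fold changes nearer 0. Acsm2, likewise a synthetase, stood at 2933, 3716 and 4533 CPM in the Control mice, 3013, 3150.2 and 3736 in the AKI-CKD mice and 3432, 3576 and 2986 in the AKI-CKD + EGT mice, with -0.18 (SE 0.20) and 0.01 (SE 0.20), and the first was -0.0078 without Control mouse 3. Acsm1 stood at 122, 145 and 144 CPM in the Control mice, 120.5, 149 and 131 in the AKI-CKD mice and 158, 132 and 113 in the AKI-CKD + EGT mice, with -0.04 (SE 0.15) and 0.01 (SE 0.15). The 3 synthetases are close paralogs, so reads that fit more than 1 of them could have been divided in the authors' counting, and their levels are uncertain to that extent.

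**Figure D3:**
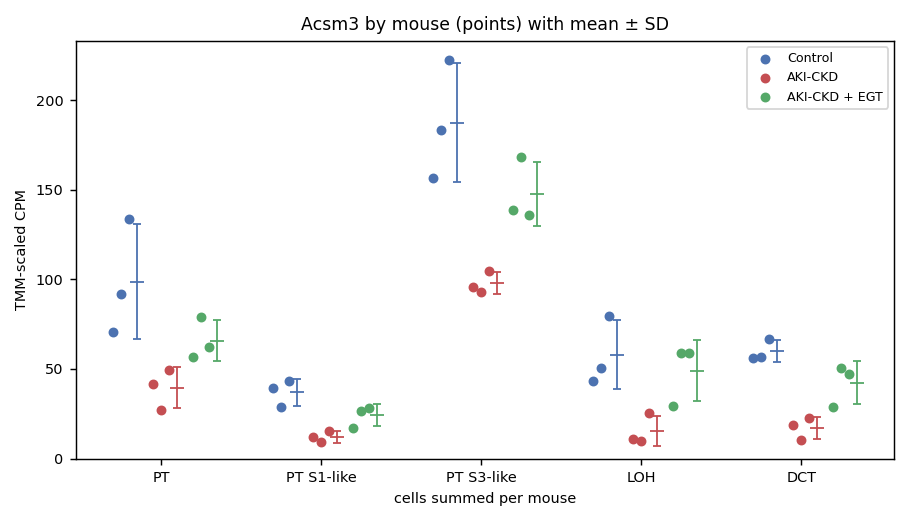
Level of Acsm3 in TMM-scaled CPM (vertical axis) in the summed cells of each mouse (points) with the mean ± SD of each group (bars), for PT cells, their S1-like and S3-like clusters, LOH (loop of Henle) and DCT (distal convoluted tubule) cells. In each of the 5 the AKI-CKD mice lie below both other groups, and the S3-like cells hold the highest levels. The 5 are not separate observations, since the S1-like and S3-like cells are PT cells of the same mice. In LOH cells the mean ratio of Acsm3 to its PT level lay within the range of the PT markers.

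The acyl-CoA dehydrogenases make the first oxidation of each round, and each prefers a chain length. Acadl, for long chains, stood at 129, 179 and 237 CPM in the Control mice, 161, 126 and 205 in the AKI-CKD mice and 181, 163 and 99.9 in the AKI-CKD + EGT mice. The groups overlapped throughout, and the fold changes were -0.15 (SE 0.27) and -0.15 (SE 0.27). Acadvl, for very long chains, stood at 115, 128 and 138 CPM in the Control mice, 131, 132 and 155 in the AKI-CKD mice and 124, 120.5 and 89.9 in the AKI-CKD + EGT mice. Its AKI-CKD + EGT mice all lay below its AKI-CKD mice, at -0.32 (SE 0.15) with an adjusted p of 0.353 and at -0.18 without AKI-CKD + EGT mouse 3, after 0.14 (SE 0.15) in AKI-CKD against Control. Acadm, for medium chains, had -0.17 (SE 0.24) and -0.05 (SE 0.24), and the first was 0.03 without Control mouse 3. Acads, for short chains, had 0.01 (SE 0.14) and -0.20 (SE 0.15). Acadsb, for short branched chains, varied least among mice, from 29.3 to 37.6 CPM, with 0.03 (SE 0.11) and 0.13 (SE 0.11).

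The middle and last steps of the mitochondrial cycle include the gene with the highest fold change of the 41 after cisplatin. Acaa2, the mitochondrial 3-ketoacyl-CoA thiolase that releases acetyl-CoA, stood at 719, 673 and 581 CPM in the Control mice, 779, 1029 and 997 in the AKI-CKD mice and 950.1, 719 and 561 in the AKI-CKD + EGT mice. All AKI-CKD mice exceeded all Control mice, and the AKI-CKD + EGT mice spread over both ranges. Its fold changes were 0.51 (SE 0.21) with an adjusted p of 0.423 and -0.33 (SE 0.21) with an adjusted p of 0.457, the second at -0.15 without AKI-CKD + EGT mouse 3. Hadha, the alpha subunit of the trifunctional protein, stood at 121, 104 and 121 CPM in the Control mice, 130.1, 135 and 147 in the AKI-CKD mice and 143, 131 and 93.6 in the AKI-CKD + EGT mice. Its AKI-CKD mice too lay above its Control mice, with 0.25 (SE 0.16) and -0.16 (SE 0.16), while the beta subunit Hadhb had 0.08 (SE 0.22) and -0.16 (SE 0.22). Decr1, the reductase that prepares polyunsaturated chains, stood at 82.0, 99.0 and 109.9 CPM in the Control mice, 95.3, 97.4 and 129 in the AKI-CKD mice and 116, 98.6 and 59.6 in the AKI-CKD + EGT mice, with 0.14 (SE 0.23) and -0.23 (SE 0.23). The hydratase Echs1 had -0.15 (SE 0.23) and -0.13 (SE 0.23), the isomerase Eci1 0.16 (SE 0.19) and -0.21 (SE 0.19) and the short-chain dehydrogenase Hadh -0.01 (SE 0.21) and -0.17 (SE 0.21). Without AKI-CKD + EGT mouse 3 the EGT values were 0.01 for Hadha, 0.07 for Hadhb, 0.01 for Decr1, 0.08 for Echs1 and 0.04 for Hadh. None of these passed an unadjusted p under 0.05 other than Acaa2 in AKI-CKD against Control.

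Etfb encodes the beta subunit of the electron transfer flavoprotein, which takes electrons from the dehydrogenases. It stood at 1943, 2128 and 1900.4 CPM in the Control mice, 2207, 2489 and 2725 in the AKI-CKD mice and 2270.2, 2449 and 1755 in the AKI-CKD + EGT mice. The AKI-CKD mice lay above the Control mice, with 0.31 (SE 0.17) and an adjusted p of 0.501, and the AKI-CKD + EGT mice overlapped with both, with -0.20 (SE 0.17), or -0.06 without AKI-CKD + EGT mouse 3. The alpha subunit Etfa had -0.12 (SE 0.26) and -0.09 (SE 0.26), and Etfdh, which hands the electrons to ubiquinone, had -0.13 (SE 0.18) and -0.01 (SE 0.18). Dropping Control mouse 3 turned the cisplatin value of Etfa to 0.08.

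Peroxisomal genes also stayed under the threshold. The thiolase genes Acaa1a and Acaa1b are near-identical copies on chromosome 9 with 4 protein-coding genes between them, and reads shared between them make their separate levels uncertain. Acaa1b stood at 977, 1175 and 1176 CPM in the Control mice, 1359, 1057 and 1817 in the AKI-CKD mice and 1097, 1589 and 834 in the AKI-CKD + EGT mice. AKI-CKD mouse 3 was the highest of the 9 and the groups overlapped, with 0.35 (SE 0.26) and -0.27 (SE 0.26), and the first fell to 0.12 without AKI-CKD mouse 3. Acaa1a stood at 711, 773 and 711 CPM in the Control mice, 742, 779 and 903 in the AKI-CKD mice and 499, 957 and 679 in the AKI-CKD + EGT mice, with 0.14 (SE 0.21) and -0.18 (SE 0.21). Scp2, which encodes a thiolase for branched chains and the sterol carrier protein, stood at 557, 822 and 759 CPM in the Control mice, 846, 821 and 987 in the AKI-CKD mice and 940.2, 789.8 and 528 in the AKI-CKD + EGT mice. Control mouse 2 lay just above the lowest AKI-CKD mouse, and the fold changes were 0.31 (SE 0.22) and -0.23 (SE 0.22). Without AKI-CKD + EGT mouse 3 the EGT values were -0.06 for Acaa1b and -0.02 for Scp2.

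Among the other steps of peroxisomal oxidation, Ehhadh, the bifunctional enzyme that is a classical PPARα target, stood at 132, 86.2 and 80.4 CPM in the Control mice, 91.6, 60.9 and 81.9 in the AKI-CKD mice and 97.5, 101 and 64.2 in the AKI-CKD + EGT mice. Control mouse 1 was the highest and AKI-CKD mouse 2 the lowest, with -0.35 (SE 0.24) and 0.16 (SE 0.24), and the first was -0.09 without Control mouse 1. Hacl1, the lyase of alpha-oxidation of branched acids such as phytanic acid, stood at 13.9, 19.0 and 18.7 CPM in the Control mice, 22.0, 21.8 and 22.5 in the AKI-CKD mice and 21.0, 18.7 and 11.5 in the AKI-CKD + EGT mice. Its AKI-CKD mice lay above the highest mouse of either other group, with 0.36 (SE 0.20) and -0.37 (SE 0.20) and adjusted p-values of 0.497 and 0.396. Decr2, the peroxisomal dienoyl reductase, stood at 28.0, 25.03 and 30.8 CPM in the Control mice, 31.9, 32.6 and 31.2 in the AKI-CKD mice and 31.4, 30.2 and 17.4 in the AKI-CKD + EGT mice. Its AKI-CKD mice lay above the Control mice, with 0.19 (SE 0.19) and -0.28 (SE 0.19). Pecr, a reductase of enoyl-CoA, stood at 460.0, 627 and 658 CPM in the Control mice, 556, 657 and 641 in the AKI-CKD mice and 606, 468 and 375 in the AKI-CKD + EGT mice, with 0.09 (SE 0.20) and -0.35 (SE 0.20). AKI-CKD + EGT mouse 3 was the lowest of the 9 for Hacl1, Decr2 and Pecr, and without it the EGT values were -0.15, -0.04 and -0.19.

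Nudt19, a peroxisomal hydrolase of CoA that is abundant in the kidney, varied most within the AKI-CKD group. It stood at 690.2, 664 and 767 CPM in the Control mice, 574, 278 and 856 in the AKI-CKD mice and 423, 752 and 501 in the AKI-CKD + EGT mice. AKI-CKD mouse 2 lay below all other mice and AKI-CKD mouse 3 above all of them, so the fold change of -0.31 (SE 0.34) after cisplatin had the widest error of the peroxisomal genes, and without AKI-CKD mouse 2 it was 0.02. The second comparison gave -0.03 (SE 0.34). Acox3, an oxidase of branched chains, had -0.16 (SE 0.14) and 0.06 (SE 0.14), Hsd17b4, the other bifunctional enzyme, had 0.01 (SE 0.15) and 0.05 (SE 0.15), and Crot, which makes medium-chain carnitine esters for export, had -0.30 (SE 0.17) and -0.12 (SE 0.17).

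Of the 6 genes with products in more than one compartment, Slc27a2, an acyl-CoA synthetase and transporter for very long chains, stood at 793, 1082 and 1536 CPM in the Control mice, 1080.3, 636 and 1136 in the AKI-CKD mice and 1139.9, 1139 and 755 in the AKI-CKD + EGT mice. Control mouse 3 was the highest and AKI-CKD mouse 2 the lowest, with -0.26 (SE 0.29) and 0.09 (SE 0.29), and the first turned to 0.02 when Control mouse 3 was dropped. Amacr, the racemase that lets branched chains enter beta-oxidation, stood at 106, 154 and 188 CPM in the Control mice, 123, 96.6 and 160.3 in the AKI-CKD mice and 149, 131 and 90.8 in the AKI-CKD + EGT mice, with -0.24 (SE 0.25) and -0.03 (SE 0.25), and the first was -0.04 without Control mouse 3. Acsl1, a long-chain acyl-CoA synthetase, stood at 107, 105 and 82.6 CPM in the Control mice, 99.8, 134 and 118 in the AKI-CKD mice and 124, 101 and 80.2 in the AKI-CKD + EGT mice, with 0.26 (SE 0.18) and -0.21 (SE 0.18). In Acsl1 and Amacr all groups overlapped. Crat, the carnitine acetyltransferase, stood at 45.2, 46.8 and 48.4 CPM in the Control mice, 50.5, 54.8 and 63.9 in the AKI-CKD mice and 47.3, 53.9 and 38.9 in the AKI-CKD + EGT mice. Its AKI-CKD mice lay above its Control mice, with 0.27 (SE 0.14) and -0.27 (SE 0.14). Without AKI-CKD + EGT mouse 3 the EGT values were -0.05 for Acsl1 and -0.14 for Crat. Eci2, an enoyl isomerase, stood at 91.7, 105 and 118 CPM in the Control mice, 99.5, 83.5 and 124 in the AKI-CKD mice and 90.2, 115 and 76.7 in the AKI-CKD + EGT mice, with -0.04 (SE 0.19) and -0.12 (SE 0.19), and Acad11, a dehydrogenase of long chains, stood at 53.6, 58.4 and 63.3 CPM in the Control mice, 57.9, 54.8 and 67.7 in the AKI-CKD mice and 69.0, 63.2 and 41.6 in the AKI-CKD + EGT mice, with 0.04 (SE 0.18) and -0.05 (SE 0.18).

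Cd36, the fatty acid translocase of the cell surface, had the second lowest fold change of the 41 after cisplatin. It stood at 46.0, 83.4 and 110.3 CPM in the Control mice, 56.5, 23.7 and 56.6 in the AKI-CKD mice and 47.8, 62.3 and 53.5 in the AKI-CKD + EGT mice. Control mouse 1 lay within the AKI-CKD range, so the groups overlapped, and the fold changes were -0.81 (SE 0.35) with an adjusted p of 0.442 and 0.26 (SE 0.35) with an adjusted p of 0.750. Leaving out either AKI-CKD mouse 2 or Control mouse 3 moved the first to -0.50. Fabp3, a cytosolic fatty acid binding protein, stood at 143, 86.8 and 77.4 CPM in the Control mice, 106, 142 and 98.4 in the AKI-CKD mice and 94.9, 124 and 94.2 in the AKI-CKD + EGT mice, with 0.17 (SE 0.24) and -0.15 (SE 0.24), and the first ran from 0.0062 where AKI-CKD mouse 2 was left out to 0.49 where Control mouse 1 was. Ppara itself stood at 138, 102 and 129 CPM in the Control mice, 134, 89.0 and 117 in the AKI-CKD mice and 99.7, 105 and 95.6 in the AKI-CKD + EGT mice. Its groups overlapped, with -0.11 (SE 0.17) and -0.18 (SE 0.17).

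Summed over its members, neither compartment separated the groups. The 21 mitochondrial genes made up 8763 ± 835 CPM of PT UMIs in the Control group, 8419 ± 541 in the AKI-CKD group and 9118 ± 614 in the AKI-CKD + EGT group (plain CPM, mean ± SD, n = 3). The 11 peroxisomal genes made up 4173 ± 174, 4291 ± 646 and 4351 ± 734 CPM. On this plain scale both AKI-CKD + EGT means lay above the AKI-CKD means, whereas the TMM-scaled medians with EGT lay below 0. The mitochondrial sum was therefore about as many times the peroxisomal sum in each group, with ratios of 2.02, 2.04 and 2.23 in the Control mice, 1.87, 2.26 and 1.82 in the AKI-CKD mice and 2.34, 1.86 and 2.16 in the AKI-CKD + EGT mice. The ranges overlapped, and the group means of 2.10 ± 0.112, 1.98 ± 0.243 and 2.12 ± 0.246 lay within their spread. All 41 genes together took 1.32% to 1.68% of PT UMIs.

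The 41 genes were also compared between PT clusters like the first and those like the last segment of the PT. Its first segment is called S1 and its last S3, and clusters were called S1-like (36727 cells) or S3-like (38181 cells) where at least 3 segment markers were raised, such as Slc5a2 for S1 and Slc7a13 for S3. Between the 2 sets of cells all 6 S1 markers were at least 1.5 times higher in S1-like cells, but only 4 of the 7 S3 markers were so in S3-like cells, while Slc16a9 (65.7 and 65.3 CPM in S1-like and S3-like cells), Cyp7b1 (1.09 and 1.21 CPM) and Bcat1 (0.226 and 0.0860 CPM) were not. One S1-like cluster of 11335 cells raised 3 S3 markers beside 6 of S1 and went to the segment with more. The other 78640 PT cells were given to neither. In each of the 9 mice, 20 of the 41 genes were higher in S3-like cells, against 10.3% of the 7637 genes with at least 10 CPM, and 11 were lower, against 63.3%. The median log2 ratio of S3-like over S1-like cells was 0.06 for the 41 genes and -0.40 for all those genes. These clusters were drawn from the same cells, so the values are a description and carry no test. The clusters also differed in depth, with medians of 4864, 4115 and 4062 UMIs in the S1-like and 2727.5 and 5634 in the S3-like ones. The part of depth in these ratios was not tested.

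**Figure D4:**
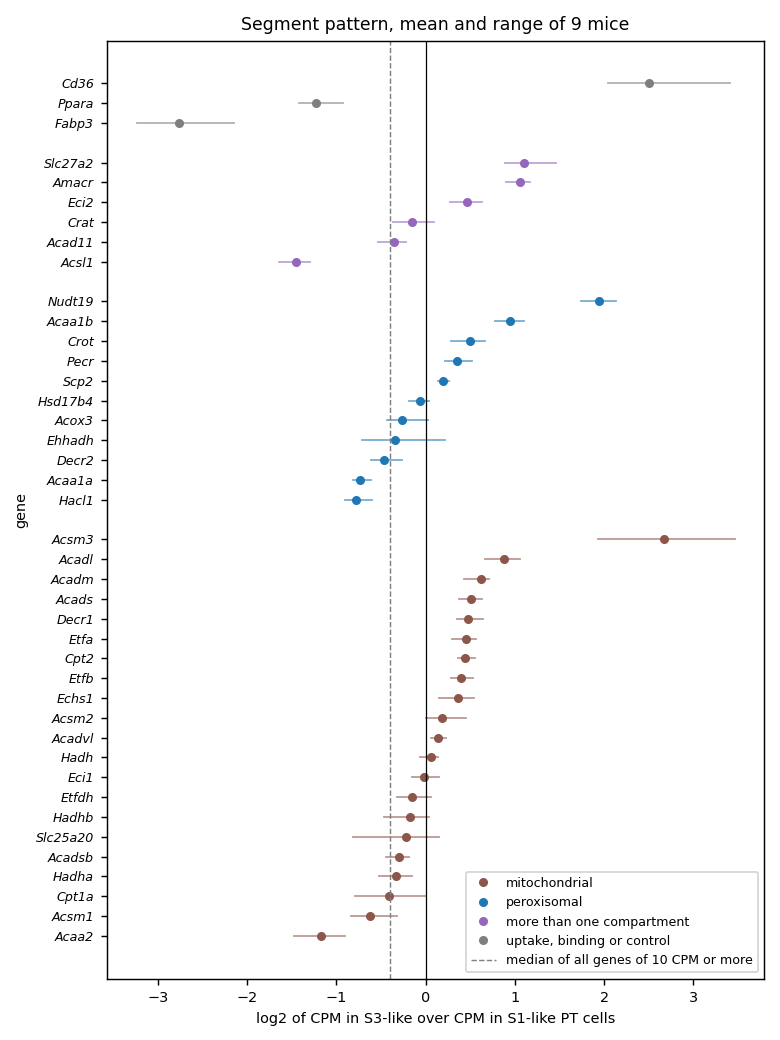
Log2 of the plain CPM in S3-like over that in S1-like PT cells (horizontal axis) for each of the 41 genes (rows), with the mean of 9 mice (point), the range of the mice (bar), colours by compartment and a dashed line at the median of all genes with at least 10 CPM. Acsm3, Cd36 and Nudt19 lie far to the right and Fabp3, Acsl1, Ppara and Acaa2 far to the left, with ranges that do not reach 0.

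The genes highest in S3-like cells came from every class. Acsm3 averaged 24.9 ± 12.7 CPM in S1-like and 145 ± 45.9 CPM in S3-like cells (SD, n = 9), a log2 ratio of 2.67 ± 0.44. Cd36 averaged 22.8 ± 10.2 CPM in S1-like and 119.8 ± 31.6 CPM in S3-like cells, a ratio of 2.51 ± 0.43. Nudt19 averaged 286 ± 83.8 CPM in S1-like and 1078 ± 253 CPM in S3-like cells, a ratio of 1.94 ± 0.15. For these 3 genes the lowest mouse still had a log2 ratio of 1.93, 2.04 and 1.74. Slc27a2 (1.099 ± 0.19), Amacr (1.05 ± 0.08) and Acaa1b (0.95 ± 0.12), which serve very long or branched chains, followed, with the long-chain dehydrogenase Acadl at 0.88 ± 0.15 and the medium-chain Acadm at 0.62 ± 0.09.

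At the other end, Fabp3 averaged 174 ± 35.8 CPM in S1-like and 26.4 ± 8.91 CPM in S3-like cells, a log2 ratio of -2.76 ± 0.32. Acsl1 had -1.45 ± 0.13 and Ppara -1.23 ± 0.19. Acaa2 averaged 958 ± 116 CPM in S1-like and 433 ± 100.1 CPM in S3-like cells, a ratio of -1.17 ± 0.19, so this mitochondrial thiolase and the peroxisomal Acaa1b lay on opposite sides. The copies Acaa1a (-0.73 ± 0.07) and Acaa1b were also opposed, as were the synthetases Acsm1 (-0.63 ± 0.17) and Acsm3, with Hacl1 at -0.78 ± 0.11. Acad11, at -0.35 ± 0.09, was lower in S3-like cells but lay just above the median of -0.40 for all genes of at least 10 CPM. In all 9 mice the mitochondrial sum was a smaller multiple of the peroxisomal sum in S3-like than in S1-like cells. The Control means were 1.86 ± 0.175 and 2.30 ± 0.138, those of AKI-CKD 1.70 ± 0.183 and 2.16 ± 0.213, and those of AKI-CKD + EGT 1.84 ± 0.158 and 2.28 ± 0.345. The sums weigh abundant genes most, and among the peroxisomal genes Nudt19 was higher in S3-like cells by the values given above and Acaa1b stood at 864 ± 168 CPM in S1-like and 1667 ± 342 CPM in S3-like cells. Gene by gene the order was the other way, with a median log2 ratio of 0.14 for the 21 mitochondrial genes, 11 of them higher in S3-like cells in all 9 mice, and -0.06 for the 11 peroxisomal genes, 5 of them higher.

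Promoters are shown for Acsm3 and Cd36, the highest in S3-like cells, for Fabp3, the lowest, for Ppara, which followed Acsl1 at that end and encodes the receptor whose half-site was searched, and for a subunit gene of the trifunctional protein. They let genes that are placed alike be compared for a shared element. The sequences are the RefSeq windows from 250 bases before to 50 after the gene's start in build GRCm38.p6, written 5′ to 3′ on the gene's strand. The submitters name GRCm39 for the matrices, so the coordinates belong to the RefSeq build alone. Windows were found for 36 of the 41 genes, 38 windows in all. Capitals mark the nuclear receptor half-site AGGTCA, searched on both strands, of which PPARα sites hold 2 copies spaced by 1 base.
Acsm3, chr7:119760673-119760972, plus strand: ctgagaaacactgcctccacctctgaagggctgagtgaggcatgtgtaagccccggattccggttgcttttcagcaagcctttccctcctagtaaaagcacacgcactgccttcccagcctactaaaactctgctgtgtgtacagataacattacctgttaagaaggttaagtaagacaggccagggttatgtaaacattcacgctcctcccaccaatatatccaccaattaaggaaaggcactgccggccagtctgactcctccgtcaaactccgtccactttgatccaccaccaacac
Cd36, chr5:17835847-17836146, minus strand: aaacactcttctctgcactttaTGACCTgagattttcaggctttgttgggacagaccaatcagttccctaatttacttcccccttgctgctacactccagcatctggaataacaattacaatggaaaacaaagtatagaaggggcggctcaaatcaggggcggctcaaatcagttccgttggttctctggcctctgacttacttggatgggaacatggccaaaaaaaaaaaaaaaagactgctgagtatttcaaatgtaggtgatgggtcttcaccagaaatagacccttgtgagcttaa
Fabp3, chr4:130308488-130308787, plus strand: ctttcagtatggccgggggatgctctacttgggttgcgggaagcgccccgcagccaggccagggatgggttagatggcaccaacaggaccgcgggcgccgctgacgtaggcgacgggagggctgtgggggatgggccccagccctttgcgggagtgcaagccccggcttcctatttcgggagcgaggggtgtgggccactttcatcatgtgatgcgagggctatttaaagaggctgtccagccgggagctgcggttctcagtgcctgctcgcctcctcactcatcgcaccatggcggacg
Ppara, chr15:85735526-85735825, plus strand: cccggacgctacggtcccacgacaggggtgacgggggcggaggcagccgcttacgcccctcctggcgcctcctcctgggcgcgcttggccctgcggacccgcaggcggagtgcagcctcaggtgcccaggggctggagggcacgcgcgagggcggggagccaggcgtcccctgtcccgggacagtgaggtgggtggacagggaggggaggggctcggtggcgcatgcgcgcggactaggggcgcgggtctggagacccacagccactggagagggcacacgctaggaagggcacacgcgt
Hadhb, chr5:30155003-30155302, plus strand: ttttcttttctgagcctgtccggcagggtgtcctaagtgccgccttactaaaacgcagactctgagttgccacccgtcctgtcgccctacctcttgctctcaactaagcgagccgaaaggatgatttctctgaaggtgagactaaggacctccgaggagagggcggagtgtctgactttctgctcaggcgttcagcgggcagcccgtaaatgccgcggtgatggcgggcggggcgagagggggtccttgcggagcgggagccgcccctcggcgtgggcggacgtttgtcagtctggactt

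The half-site occurred in 8 of the 38 windows (21.1%), those of Acadm, Acadvl, Acsm1, Cd36, Cpt1a, Echs1, Scp2 and Slc27a2, and in 16.3% of all 32851 windows. Cd36 holds 1 on the reverse strand, and Acsm3, Fabp3, Ppara and Hadhb hold none in these windows. A direct repeat of this half-site with any 1 base between the copies, which also counts as a half-site match, was in 0 of the 38 windows and in 0.0396% of all windows. The CG dinucleotides did not follow the segments. The 19 windows of genes that were higher in S3-like cells in all 9 mice held 1 to 34 of them, with a median of 16, and the 11 windows of genes that were lower held 2 to 30, also with a median of 16, where the median of all windows was 7. The Hadhb window shares 228 bases with that of Hadha, whose gene runs in the opposite direction, so the 2 subunit genes start from 1 stretch of DNA.

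The group differences were next read within each segment. In S1-like cells Acsm3 stood at 39.2, 28.6 and 43.4 CPM in the Control mice, 12.2, 8.97 and 15.6 in the AKI-CKD mice and 17.3, 26.7 and 28.4 in the AKI-CKD + EGT mice. In S3-like cells it stood at 157, 183 and 222 CPM in the Control mice, 96.0, 92.7 and 104 in the AKI-CKD mice and 138, 168 and 136 in the AKI-CKD + EGT mice. In both, every AKI-CKD mouse lay below every mouse of the other groups. The fold changes were -1.59 (SE 0.24, adjusted p 0.0741) and 0.97 (SE 0.24) in S1-like cells, and -0.94 (SE 0.15, adjusted p 0.0596) and 0.59 (SE 0.15) in S3-like cells. Cd36 had -1.07 (SE 0.34) and -0.55 (SE 0.22) after cisplatin, and Acaa2 0.39 (SE 0.16) and 0.55 (SE 0.23). After cisplatin the mice did not overlap for 7 genes that were higher and 3 that were lower in S1-like cells, against 10.6% and 10.3% of all genes, and for 6 and 3 in S3-like cells, against 9.22% and 9.95%. No member was called in either segment in either comparison, where 0.0128% of genes in S1-like and 0.0733% in S3-like cells were called after cisplatin and 0.00% in both with EGT. At an unadjusted p under 0.05 there were 4 after cisplatin and 2 with EGT in S1-like cells, against 13.7% and 14.9% of all genes, and 5 and 1 in S3-like cells, against 9.94% and 14.8%. The share of PT cells that were S3-like was 23.5% to 28.9% in the Control mice, 19.0% to 26.2% in the AKI-CKD mice and 22.9% to 26.1% in the AKI-CKD + EGT mice, with the lowest in AKI-CKD mouse 2, which also had the lowest Acsm3, Cd36, Slc27a2 and Nudt19 of the 9 mice. The part of this share in those values was not tested.

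Outside the PT, cells of the loop of Henle (LOH, 7692 cells) and DCT cells (12778) are rich in mitochondria too. The DCT cells were 2 clusters, 1 of 7701 cells led by Slc12a3 and Pvalb and 1 of 5077 cells led by Ltc4s, Calb1, S100g and Klk1, genes also known from the connecting tubule, which raised 5 of the 6 DCT markers. The second made up 36.7% to 40.6% of DCT cells in the Control mice, 39.3% to 45.4% in the AKI-CKD mice and 36.9% to 42.1% in the AKI-CKD + EGT mice. Reading the 41 genes there needs a background, because PT transcripts were found in all cell types. The 10 PT markers, which these cells are not known to make, stood at a median of 0.612 of their PT level in LOH cells and 0.507 in DCT cells (plain CPM, mean of 9 mice), with single markers at 0.535 to 0.631 and 0.478 to 0.554. A gene at such a ratio was read as background there. In all 9 mice 24 of the 41 genes lay above every PT marker in LOH cells, 28 in DCT cells, 24 in intercalated cells and 19 in principal cells, which are the 2 cell types of the collecting duct, but 9 in endothelial cells and 0 in macrophages, T cells, B cells and podocytes. Of the 21 mitochondrial genes 17 did so in LOH and 17 in DCT cells, and of the 11 peroxisomal genes 3 and 6, with median ratios of 0.930 and 0.894 against 0.685 and 0.611. The rule asks for all 9 mice, and single mice had as few as 56 macrophages, 60 T cells, 39 B cells and 16 podocytes. By the mean of 9 mice the mitochondrial median exceeded the highest marker in macrophages, at 0.738 against 0.709. It did so too in B cells (0.708 against 0.670) and podocytes (0.791 against 0.787), but not in T cells (0.614 against 0.615). The share of all genes that pass the rule was not counted, so these counts do not set the 41 genes apart.

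**Figure D5:**
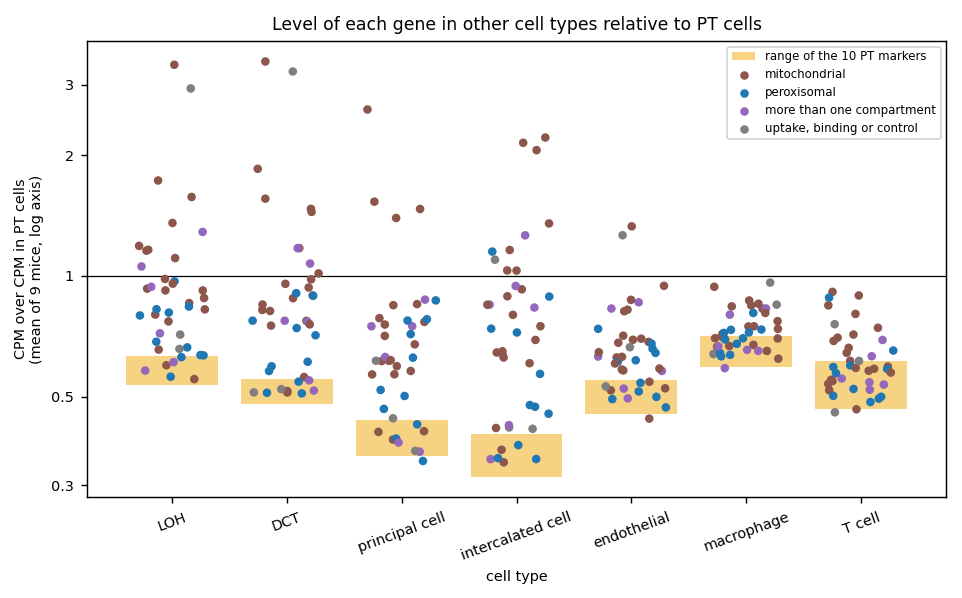
Plain CPM of each of the 41 genes in 7 other cell types over its CPM in PT cells (vertical log axis, mean of 9 mice), coloured by compartment, with a yellow band over the range of the 10 PT markers in the same cells. Mitochondrial genes make up most of the points above the band in LOH, DCT, principal and intercalated cells. Points lie above it in macrophages too, where the mitochondrial median of 0.738 exceeds the highest marker, at 0.709. By the stricter rule of all 9 mice, none of the 41 genes lay above every marker in macrophages or T cells.

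Several genes stood higher outside the PT than in it, which is given here as a description of the clusters. Acadsb stood in LOH cells at 110.3 CPM against 33.0 in PT cells, a ratio of 3.37 ± 0.630 (SD, n = 9), and in DCT cells at a ratio of 3.43 ± 0.892. Fabp3 had 2.94 ± 0.947 and 3.24 ± 1.05. The lowest mouse was above 1 for both genes in both cell types. The trifunctional protein genes behaved alike, with Hadhb at 1.73 ± 0.323, 1.85 ± 0.269 and, in intercalated cells, 2.22 ± 0.248, and Hadha at 1.57 ± 0.212, 1.56 ± 0.208 and 2.15 ± 0.355. Cpt1a had 1.36 ± 0.211 and 1.47 ± 0.257. By contrast, Acsm2 (0.598 ± 0.0847 and 0.512 ± 0.120), Slc27a2 (0.580 ± 0.0802 and 0.517 ± 0.136) and Acaa1b (0.560 ± 0.0696 and 0.509 ± 0.1497) stayed at the level of the PT markers. Cd36 was above all markers in endothelial cells in 9 of 9 mice, at 1.26 ± 0.784, where one mouse reached 3.28.

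Between groups, 0 of the 41 genes were called by edgeR in LOH or DCT cells, in either comparison. The called share of all genes was 0.0189% in LOH cells after cisplatin and 0.0471% with EGT, and 0.00% in DCT cells in both. At an unadjusted p under 0.05 there were 7 genes lower and 1 higher in LOH cells after cisplatin, against 4.99% and 5.14% of all genes, and 6 higher and 0 lower with EGT, against 6.99% and 6.27%. In DCT cells there were 7 lower and 0 higher after cisplatin, against 5.34% and 4.69%, and 5 higher and 0 lower with EGT, against 7.61% and 5.61%. DESeq2 called 1 gene, Acsm3, in LOH cells in each comparison, where it called 14 and 78 of all genes, and in DCT cells with EGT, where it called 78. In DCT cells after cisplatin it called 0 of the 41 and 29 of all genes. With no filter on low counts edgeR called 4 in DCT cells in each comparison, Acsm3, Cd36, Ehhadh and Slc27a2, beside 298 of all genes after cisplatin and 534 with EGT. The medians of the 41 genes were -0.09 and 0.12 in LOH cells and -0.12 and 0.15 in DCT cells. With library totals as the only scaling the EGT medians were 0.14 in LOH and 0.26 in DCT cells, beside 0.04 and 0.11 for all genes. Leaving out single mice gave -0.17 to -0.04 after cisplatin and 0.05 to 0.15 with EGT in LOH cells, and -0.22 to -0.07 and 0.03 to 0.25 in DCT cells. Those of the 10 PT markers, read as background in these cells, were -0.17 and 0.15 in LOH cells and -0.33 and 0.27 in DCT cells. The PT markers stood at 0.455 to 0.600 of their PT level in LOH cells of the AKI-CKD mice, against 0.581 to 0.686 in Control and 0.567 to 0.687 in AKI-CKD + EGT, and in DCT cells at 0.342 to 0.523 against 0.456 to 0.680 and 0.426 to 0.685. The part of PT RNA in the differences of the 41 genes in these cells was not tested.

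Acsm3 again had the widest difference there. In LOH cells it stood at 43.2, 50.6 and 79.6 CPM in the Control mice, 11.1, 9.85 and 25.3 in the AKI-CKD mice and 29.4, 59.0 and 58.8 in the AKI-CKD + EGT mice. In DCT cells it stood at 55.9, 56.5 and 66.8 CPM in the Control mice, 18.8, 10.5 and 22.5 in the AKI-CKD mice and 28.5, 50.8 and 47.3 in the AKI-CKD + EGT mice. No AKI-CKD mouse reached the lowest mouse of either other group. The fold changes were -1.88 (SE 0.35, adjusted p 0.123) and 1.71 (SE 0.35, adjusted p 0.0734) in LOH cells, and -1.82 (SE 0.27, adjusted p 0.0742) and 1.32 (SE 0.27, adjusted p 0.284) in DCT cells. The ratio of its LOH level to its PT level was 0.553 ± 0.152, within the range of the PT markers, and that in DCT cells was 0.559 ± 0.107, above every marker in 6 of 9 mice. These means pool the mice of all groups and do not show the ratio within a group. In principal cells Acsm3 had -1.79 (SE 0.37) and 1.85 (SE 0.35), also with no overlap, and was not called. The PT markers differed between groups in principal cells too, as given below, and their part in these values was not tested. The mice did not overlap for 6 genes that were lower and 1 that was higher in LOH cells after cisplatin, against 7.20% and 8.11% of all genes, and for 4 that were higher and 2 that were lower with EGT, against 8.30% and 8.37%. In DCT cells these were 7 lower and 1 higher, against 7.85% and 8.80%, and 3 higher and 1 lower, against 9.15% and 8.34%. In LOH cells Acsm1 (-0.46, SE 0.14, and 0.56, SE 0.14) and Hadh (-0.35, SE 0.14, and 0.34, SE 0.14) had no overlap in either comparison. Hadha had none either but in the opposite directions, at 183, 146 and 207 CPM in the Control mice, 234, 229.6 and 220.5 in the AKI-CKD mice and 209, 194 and 156 in the AKI-CKD + EGT mice (0.36, SE 0.16, and -0.30, SE 0.16). In DCT cells Acsm1 had no overlap in either comparison (-0.64, SE 0.21, and 0.62, SE 0.21).

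In intercalated cells (1737 cells, 78 to 600 a mouse) 3 of the 40 genes tested were called in AKI-CKD + EGT against AKI-CKD, where 4.47% of all genes were called, and these are named after their values were seen. Acsm1 rose by 1.24 (SE 0.25, adjusted p 0.0204), from 33.3, 36.6 and 44.1 CPM in the AKI-CKD mice to 90.1, 67.8 and 105 in the AKI-CKD + EGT mice. Acsm2 rose by 1.20 (SE 0.28, adjusted p 0.0269), from 659.9, 652 and 1064 to 1052, 1857 and 2507 CPM, with AKI-CKD mouse 3 just above the lowest AKI-CKD + EGT mouse. Scp2 rose by 0.78 (SE 0.18, adjusted p 0.0269), from 273, 248 and 328 to 463, 508 and 483 CPM. All 10 PT markers were also higher in the same comparison, with a median of 0.94 and 2 of them called, Miox and Fbp1, and the PT markers stood at 0.203 to 0.280 of their PT level in AKI-CKD and 0.307 to 0.643 in AKI-CKD + EGT. The ratio to the PT level over the 9 mice was 0.368 ± 0.147 for Acsm2, within the marker range of 0.315 to 0.404, 0.417 ± 0.146 for Acsm1, above every marker in 3 of 9 mice, and 0.453 ± 0.129 for Scp2, above every marker in 6 of 9. These means pool the mice of all groups and do not show the ratio within a group. The part of PT RNA in these calls was not tested. Acsm1 rested on 28, 23 and 19 UMIs in the AKI-CKD mice and 37, 62 and 178 in the AKI-CKD + EGT mice. DESeq2 called 4, Acsm1, Acsm2, Scp2 and Slc27a2, with 254 of all genes. By edgeR the count fell to 0 where AKI-CKD mouse 1, AKI-CKD mouse 2 or AKI-CKD + EGT mouse 3 was left out, with 38, 11 and 21 of all genes called in place of 350. It was 1 on leaving out AKI-CKD + EGT mouse 2, with 60 of all genes, and 6 on leaving out AKI-CKD mouse 3, with 146. It reached 5 when Control mouse 3 was dropped, with 420 of all genes, and 10 when AKI-CKD + EGT mouse 1 was, with 1006. With the replicate number as a block it was 0, with 60 of all genes. After cisplatin edgeR called 0 of the 40 and 0.00% of all genes, and DESeq2 called 0 of the 40 and 10 of all genes. By edgeR 3 passed an unadjusted p under 0.05, against 10.8%.

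In all kept cells together, 0 of the 41 genes were called in either comparison, against 0.0199% and 0.00496% of all genes, with Acsm3 at -1.35 (SE 0.30) and 0.65 (SE 0.30). DESeq2 called 1 (Acsm3) after cisplatin and 0 with EGT, beside 112 and 217 of all genes. By edgeR 2 and 0 passed an unadjusted p under 0.05, against 8.02% and 12.7% of all genes. In endothelial cells edgeR called 0 in both comparisons, against 0.00% and 0.00965%, with 3 and 2 at an unadjusted p under 0.05, against 9.32% and 9.94%. In macrophages it called 0, against 0.0139% in both, with 1 and 1, against 5.85% and 7.79%. In principal cells it called 0, against 0.0212% in both, with 5 and 11, against 15.1% and 14.3%. The PT markers stood at 0.204 to 0.360 of their PT level in principal cells of the AKI-CKD mice. They stood at 0.290 to 0.532 in Control and 0.316 to 0.594 in AKI-CKD + EGT. The part of PT RNA in these counts was not tested.

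Genes that feed, control or compete with the pathway were taken from lists, and none of them was called in PT cells in either comparison. Of 36 further genes of fatty acid oxidation and ketone metabolism, 35 were tested, with medians of -0.03 and -0.11, and at an unadjusted p under 0.05 there were 3 higher and 2 lower after cisplatin and 3 higher and 3 lower with EGT. For this list and those below, the shares of all genes at that p were 4.89% higher and 6.16% lower after cisplatin and 8.80% higher and 6.20% lower with EGT. Bdh1, the ketone body dehydrogenase, stood at 27.3, 36.1 and 56.3 CPM in the Control mice, 15.5, 8.95 and 20.6 in the AKI-CKD mice and 20.7, 43.8 and 37.9 in the AKI-CKD + EGT mice, with -1.40 (SE 0.36) and 1.18 (SE 0.36). Its AKI-CKD mice lay below all other mice, but only just, with AKI-CKD mouse 3 at 20.65 CPM and AKI-CKD + EGT mouse 1 at 20.74. Of all genes, 9.33% were lower without overlap after cisplatin and 10.1% higher without overlap with EGT. The thioesterase genes Acot3, at 0.82 (SE 0.23) after cisplatin, and Acot2, at -0.62 (SE 0.19) with EGT and -0.50 without AKI-CKD + EGT mouse 3, came next. All 17 genes of peroxisome biogenesis were tested, with medians of 0.05 and -0.11 and 0 at an unadjusted p under 0.05 in either comparison, and the smallest unadjusted p-values belonged to Pex16 (0.34, SE 0.16) and Pex6 (0.13, SE 0.11) after cisplatin and to Pex3 (-0.40, SE 0.19) and Pex6 (-0.22, SE 0.11) with EGT.

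Of 28 PPAR regulators, targets and lipid storage genes 27 were tested, with medians of 0.06 and -0.01, and 3 were higher and 1 lower at that p in each comparison. Esrra, a nuclear receptor that controls mitochondrial genes, stood at 142, 155 and 133 CPM in Control and 175, 222 and 187 in AKI-CKD, without overlap, at 0.44 (SE 0.13), and Fabp1, the liver fatty acid binding protein, at 4.30, 2.35 and 1.68 CPM in Control and 5.81, 9.92 and 7.71 in AKI-CKD, at 1.49 (SE 0.47). With EGT the smallest p-values were those of Fabp4 (0.92, SE 0.23) and Scd2 (1.90, SE 0.49), both under 8 CPM in every mouse. Fabp4 is also among the top genes of the endothelial cluster, and the 8 endothelial markers summed to 4.74 to 10.1 CPM in PT cells of the AKI-CKD mice and 8.84 to 10.04 in those of the AKI-CKD + EGT mice. Of 17 glycolysis genes 15 were tested, with medians of 0.14 and -0.08, and 2 were higher and 1 lower at that p after cisplatin and 2 higher and 0 lower with EGT. Pfkl, a phosphofructokinase, had 0.44 (SE 0.11) and Pfkfb3 -1.20 (SE 0.46) after cisplatin, the latter at -0.54 without Control mouse 1. The pyruvate kinase gene Pkm, at 4.70, 9.47 and 4.50 CPM in AKI-CKD and 10.9, 16.1 and 23.6 in AKI-CKD + EGT, had 1.44 (SE 0.33), and the hexokinase gene Hk1, at 2.40, 4.13 and 1.83 CPM in AKI-CKD and 4.19, 8.39 and 16.5 in AKI-CKD + EGT, had 1.80 (SE 0.46). AKI-CKD + EGT mouse 3 was the highest of the 9 for Pkm, Hk1 and Scd2, and without it these had 1.13, 1.19 and 1.29, while Fabp4 had 1.05. The 6 marker lists of other cell types given above had higher sums in PT cells of every AKI-CKD + EGT mouse than of every AKI-CKD mouse. Their part in the values of these genes was not tested.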

How the data were processed

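Droplet single-cell RNA libraries of kidneys from 9 mice, 3 a group, were analysed from the deposited matrices of UMI counts per gene and cell, whose file headers name PISA 1.0. The submitters' processing notes name the genome build GRCm39, and the aligner and its settings are not given in the sources used here. The authors' counts were not normalized. Every sample had a group in the labels. Library totals were 70106161 to 101525691 UMIs, and PT cells held 39372784 to 84181726 a mouse, against 310991 to 1866521 in intercalated cells, where counting error weighs more.

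Cells with at least 1000 UMIs, 500 genes and at most 15% mitochondrially encoded counts were kept, 196925 of 216680 barcodes, which is more cells than the study kept. The matrices name barcodes by running numbers, so 62337 of the 98290 different names occur in more than 1 library and shared names do not show shared cells. The kept cells were clustered on 2000 variable genes, chosen without the 41 genes, the related lists and the mitochondrially encoded and ribosomal protein genes. The settings were 30 components, Harmony over mice, 20 neighbours and Leiden at resolution 1.1 (pynndescent 0.6.0, leidenalg 0.10.2). Clusters were named where at least 3 markers were raised, by 1.5 times for PT and PT segments and by 2 times for other types. The PT and segment limits were set after the clusters were seen, and 8253 cells (4.19%) stayed unnamed. Of these, 4719 were in a cluster led by haemoglobin genes and 2097 in clusters that raised PT markers beside those of another type. The rest were in clusters led by dendritic cell genes (821 cells) or long neuronal genes (365), with fewer than 3 markers raised (246) or with under 50 cells. Scrublet (scanpy 1.11.5) called 0 to 2 cells as doublets in 8 libraries and 3920 (22.8%) in AKI-CKD + EGT mouse 1, so its calls were not used, and the alternative left out the highest 6% of scores.

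For each cell type the counts of a mouse were added up, and these sums entered edgeR 4.0.16 in R 4.3.3 (filterByExpr, TMM, quasi-likelihood test, all 9 mice in 1 model, Benjamini-Hochberg over all genes tested, called at an adjusted p under 0.05). The test ran over mice because cells of a mouse are not replicates. All tests were two-sided. DESeq2 1.42.0, no filter, other scalings, a model of only the 6 mice in question, a block for the replicate number, a run without the mitochondrial limit, a run without Harmony and leaving out each mouse were tried as alternatives. Those for intercalated cells and a scaling by library totals without TMM were added after seeing the data. In counts simulated from the means and library sizes of the PT cells, 0 of 200 genes changed by a log2 of 0.5 were called, 81 of 200 at 1 and 153 of 200 at 2, over 17930 genes.

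The 41 genes, the related lists and the tests were chosen with earlier results of these data known. Named with values by mouse were members past the threshold, up to 4 of each class and comparison with the largest absolute fold change, and the 2 highest and 2 lowest of each class in S3-like over S1-like cells, and of each related list up to 2 genes a comparison with the smallest p. Cpt1a, Acsm2 and the genes named in cells other than PT were added after their values were seen. Promoters came from RefSeq (GRCm38.p6), with no window for Amacr, Decr1, Crat, Hsd17b4 and Acaa2.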

Additional observations from a re-analysis of the deposited data

How the results depend on the processing

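The count of the 41 genes called in PT cells was 0 in AKI-CKD against Control, and 1 (Acsm3) with DESeq2 and 1 with no filter on low counts, where all genes called numbered 191 and 115 instead of 8. It was 0 under the other alternatives. With EGT it was 0 under every alternative, with 409 (DESeq2) and 242 (no filter) of all genes called instead of 0. In LOH cells it was 1 (Acsm3) after cisplatin with DESeq2, no filter, only the 6 mice compared or the replicate block (14, 144, 7 and 1 of all genes), and 1 with EGT with DESeq2 or no filter (78 and 372). In DCT cells it was 4 with no filter and 1 with only the 6 mice after cisplatin (298 and 6 of all genes), and 4 with no filter and 1 with DESeq2 with EGT (534 and 78). In all kept cells DESeq2 gave 1 after cisplatin and 0 with EGT (112 and 217 of all genes). In intercalated cells it was 1 (Acsm2) with no filter after cisplatin (131 of all genes), and with EGT 10 with no filter, 4 with DESeq2 and 0 with the replicate block instead of 3. All genes called there numbered 853, 254 and 60 instead of 350. Why these counts moved was not tested.

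Leaving out each mouse in turn gave counts of 0 to 0 in PT and in all kept cells (0 to 13 of all genes in PT after cisplatin and 0 to 94 with EGT, and 0 to 11 and 0 to 1 in all kept cells), 0 to 1 in LOH and in DCT cells in both comparisons, and 0 to 10 in intercalated cells with EGT. Acsm3 was called in LOH cells after cisplatin without AKI-CKD mouse 3 or AKI-CKD + EGT mouse 1 (7 and 6 of all genes), in LOH cells with EGT without AKI-CKD + EGT mouse 1, Control mouse 1 or Control mouse 3 (106, 25 and 19), and in DCT cells without AKI-CKD + EGT mouse 1 (6 after cisplatin and 134 with EGT). The log2 difference of the mitochondrial to peroxisomal ratio was -0.18 to -0.03 after cisplatin and 0.02 to 0.20 with EGT, around -0.09 and 0.10.

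Of the fold changes in PT cells of the 25 genes named by the rule, 531 kept their sign and side of the threshold outside these mouse removals, 2 (Acsm3) passed it and 17 changed sign. These were Acsm1 with EGT (0.01), at -0.0078 with DESeq2, -0.028 with no filter, -0.0079 with DESeq2 size factors and -0.0095 without Harmony, and Nudt19 with EGT, at 0.040 with the replicate block. The other 12 changed sign with library totals without TMM, which moved the median of all genes by -0.09 after cisplatin and 0.23 with EGT in PT cells. They were Acad11 after cisplatin at -0.053, and with EGT Acaa1a 0.056, Acad11 0.16, Acadl 0.061, Acsl1 0.0078, Amacr 0.18, Eci2 0.10, Etfb 0.025, Fabp3 0.078, Hadha 0.052, Nudt19 0.22 and Ppara 0.049. With single mice left out 36 of these changed sign, and over all 41 genes 20 did so with at least 1 mouse left out after cisplatin and 24 with EGT. After cisplatin the ranges were Acad11 -0.052 to 0.11, Acadl -0.34 to 0.096, Acsm1 -0.12 to 0.031, Decr1 -0.0078 to 0.25, Eci2 -0.20 to 0.093, Nudt19 -0.73 to 0.021, Pecr -0.056 to 0.19, Ppara -0.25 to 0.038 and Slc27a2 -0.46 to 0.023. Without a change of sign, those that moved by more than 1.5 times were Acaa1a 0.057 to 0.20, Acaa1b 0.12 to 0.52, Acadvl 0.053 to 0.21, Acsl1 0.15 to 0.36, Amacr -0.44 to -0.037, Cd36 -1.1 to -0.50, Crat 0.17 to 0.34, Decr2 0.12 to 0.27, Ehhadh -0.48 to -0.093, Fabp3 0.0062 to 0.49, Hacl1 0.23 to 0.44 and Scp2 0.16 to 0.43. With EGT those that changed sign were Acaa1a -0.46 to 0.010, Acad11 -0.21 to 0.15, Acadl -0.33 to 0.078, Acsm1 -0.14 to 0.13, Amacr -0.20 to 0.17, Cd36 -0.060 to 0.44, Decr1 -0.45 to 0.012, Eci2 -0.30 to 0.032, Fabp3 -0.30 to 0.020, Hadha -0.30 to 0.010, Nudt19 -0.36 to 0.39 and Slc27a2 -0.14 to 0.27. Those that kept it were Acaa1b -0.55 to -0.046, Acaa2 -0.55 to -0.15, Acadvl -0.41 to -0.18 and Acsl1 -0.38 to -0.052. Crat ran from -0.39 to -0.14, Decr2 from -0.43 to -0.041, Ehhadh from 0.0064 to 0.36 and Etfb from -0.30 to -0.056. Hacl1 ran from -0.56 to -0.15, Pecr from -0.56 to -0.19 and Ppara from -0.33 to -0.044. Scp2 ran from -0.43 to -0.022 and Acsm3 from 0.52 to 0.93. The genes outside the rule ranged after cisplatin over Acadm -0.35 to 0.029, Acads -0.13 to 0.11, Acadsb -0.019 to 0.061, Acox3 -0.21 to -0.064, Acsm2 -0.32 to -0.0078, Cpt1a -0.25 to 0.0099, Cpt2 -0.16 to -0.013, Crot -0.42 to -0.17, Echs1 -0.35 to 0.019, Eci1 0.053 to 0.27, Etfa -0.31 to 0.081, Etfdh -0.22 to 0.0026, Hadh -0.14 to 0.13, Hadhb -0.030 to 0.19, Hsd17b4 -0.074 to 0.092 and Slc25a20 -0.075 to 0.11, and with EGT over Acadm -0.20 to 0.15, Acads -0.30 to -0.061, Acadsb 0.074 to 0.21, Acox3 -0.037 to 0.13, Acsm2 -0.052 to 0.11, Cpt1a -0.30 to 0.035, Cpt2 -0.23 to 0.18, Crot -0.25 to -0.020, Echs1 -0.29 to 0.084, Eci1 -0.37 to -0.0030, Etfa -0.31 to 0.16, Etfdh -0.14 to 0.19, Hadh -0.34 to 0.038, Hadhb -0.43 to 0.067, Hsd17b4 -0.028 to 0.20 and Slc25a20 -0.29 to 0.095.

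The correlations of deviations of mice with the same number were 0.32 in PT and 0.37 in all kept cells for mice 3 of AKI-CKD and Control, but -0.45 to 0.15 for the other pairs. The labels state no pairing, and these correlations cannot show whether mice with the same number shared a batch. The replicate block changed the calls as given above. A scaling or a block cannot move a ratio within 1 library, and the Harmony and variable gene alternatives do not apply to all kept cells. With 3 mice a group, a log2 change of 0.5 was not detectable in simulated PT counts, so smaller differences in these genes cannot be read from the absence of a call.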
